A study of Mus musculus with 264 samples.

Results

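Unexposed neurospheres of the culture sets called Set-A and Set-B were compared within the first of 3 measurement runs: 11 neurospheres of each set, 22 of the 264 in the series, chosen by their set, run and ethanol labels. The cells of both sets were dissected on gestational day 12.5 from C57/Bl6 mouse fetuses, where they made up the ventricular neuroepithelium of the dorsal telencephalon, and both groups were kept at 0 mM ethanol. No group carried a transgene, a deletion or any other agent. Per the labels' protocols, neuroepithelial cells of 2 litters were pooled per isolation and grown as floating aggregates in a defined medium with bFGF, EGF and LIF. The other unexposed groups used below were 23 Set-A neurospheres of run 2 and 23 Set-B neurospheres of run 3. The 66 exposed neurospheres of run 1, 11 per set at 25, 70 or 100 mM ethanol, were used only to compare the set difference across doses. Each set is 1 culture set, and no source used here gives the number of isolations in a set. The p-values therefore compare the neurospheres of these cultures only, and they understate the uncertainty about other cultures.

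A neurosphere is a ball of cells that forms when neural stem and progenitor cells divide without a surface to attach to. Basic fibroblast growth factor and epidermal growth factor keep such cells dividing, and the aggregate holds stem cells, more restricted progenitors and cells that have begun to differentiate. The dorsal telencephalon gives rise to the cerebral cortex, and its ventricular neuroepithelium holds the precursors of cortical projection neurons. The unexposed spheres are the baseline against which the series sets its ethanol doses.

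The measure was quantitative PCR on single neurospheres for 75 assays. A cycle number (Ct) is the amplification cycle at which product is detected, so a lower number means earlier product and more template; a step of 1 cycle is about 1 doubling if product doubles in each cycle. The 22 neurospheres had cycle numbers from 3.14 to 25.1, and 218 of 1650 entries (13.2%) had no value, which was taken as not detected. The assays carry codes and no gene names, and 0 of 75 codes matched the mouse gene table, so the labelled tissue could not be checked against its markers.

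The Set-B neurospheres were smaller, had fewer detected assays and gave product later than the Set-A neurospheres. Set-A diameters ran from 35.3 to 138 µm with a median of 86.1, and the mean was 86.2 ± 33.8 µm (SD, n = 11). Set-B diameters ran from 27.7 to 74.7 µm with a median of 47.7, and the mean was 46.0 ± 12.6 µm (SD, n = 11). The ranges overlapped, but 8 of 11 Set-A neurospheres were larger than the largest of Set-B. The log2 diameter differed by -0.83 (SE 0.23), a ratio of geometric means of 0.564 (adjusted p = 0.00909, two-sided permutation test, adjusted over 6 neurosphere-level tests). By the size labels, Set-A held 9 L and 2 M neurospheres, while Set-B held 2 L, 8 M and 1 S.

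**Figure D1:**
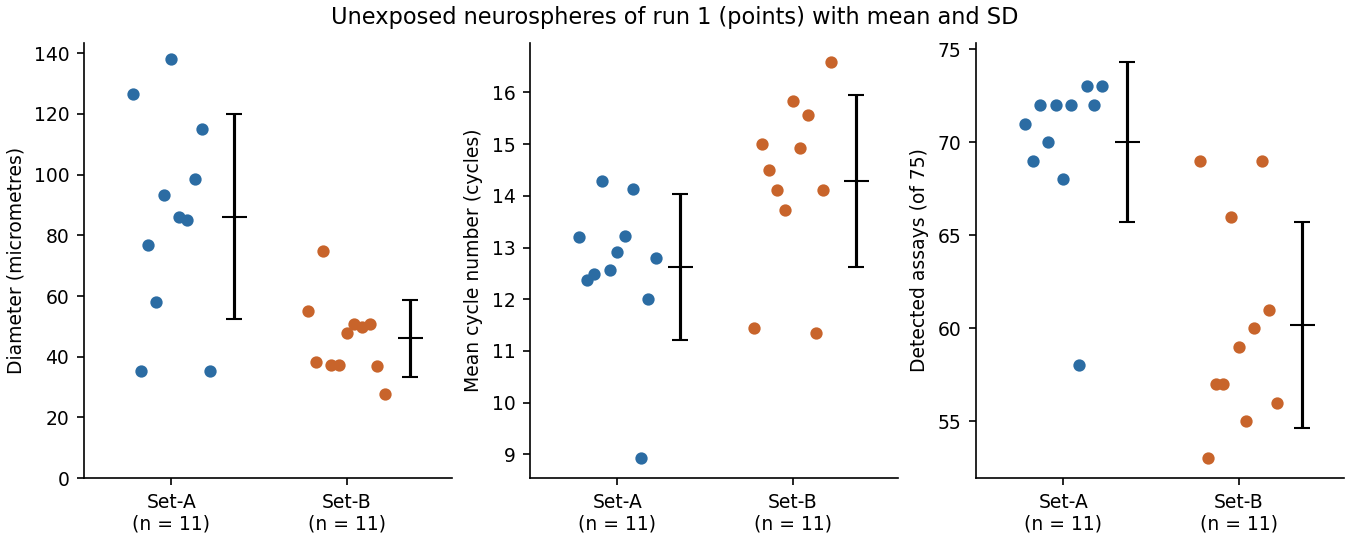
Diameter (left), mean cycle number (middle) and number of detected assays (right) of each unexposed run 1 neurosphere, 11 per set; points are neurospheres, and the bars beside them give mean and SD. Set-A diameters reach 138 µm and Set-B diameters 74.7 µm, and 1 Set-A neurosphere with 58 detected assays lies among those of Set-B.

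Fewer of the 75 assays gave a value in a Set-B neurosphere. In Set-A, 58 to 73 assays were detected, with a median of 72 and a mean of 70.0 ± 4.29 (SD, n = 11). In Set-B, 53 to 69 were detected, with a median of 59 and a mean of 60.2 ± 5.55 (SD, n = 11). The difference was -9.82 assays (SE 2.11, adjusted p = 0.0027, permutation test). With log2 diameter as a covariate it was -9.47 (adjusted p = 0.00909, permutation test). A few neurospheres lay with the other set: the Set-A neurosphere coded A6 had 58 detected assays, and the Set-B neurospheres coded A1, A7 and A3 had 69, 69 and 66. With any 1 of the 22 neurospheres left out, the difference stayed between -11.0 and -9.10 assays and passed.

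The missing values were spread over 37 assays with at least 1 missing and at least 1 detected value; 36 others had a value in all 22 neurospheres, and 2 had none in any of the 22. Among these 37, 26 were detected in fewer Set-B neurospheres, 9 in more and 2 in equal numbers. Fisher's exact test, adjusted over the 37, called 6 assays (16.2%) less often detected in Set-B and 0 (0%) more often; at an unadjusted p under 0.05 there were 12, of which 0 were more often detected in Set-B. The 6 called assays had mean cycle numbers from 10.3 to 20.1 in the Set-A neurospheres, with a median of 19.1, against a median of 14.4 over all assays detected in the 22. Outside the 2 assays that were never detected, Set-A had 33 missing values and Set-B 141. In Set-A, 10 of the assays were missing in A6 alone. The number of called assays rose to 10 without the Set-B neurosphere A1, A3 or A8 and to 12 without A7.

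**Figure D2:**
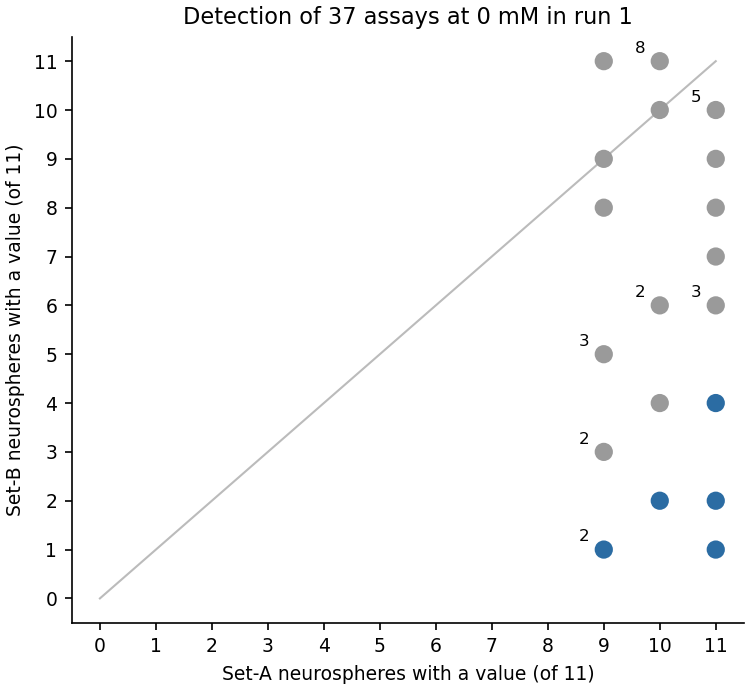
Number of neurospheres with a value for each of 37 assays, Set-A on the horizontal and Set-B on the vertical axis, each of 11; blue points passed Fisher's exact test after adjustment, grey points did not, a digit beside a point counts assays at that position, and the line marks equal numbers. The 6 called assays all lie below the line, at 1 to 4 Set-B neurospheres.

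A045 had the widest gap in detection. It was detected in 11 of 11 Set-A neurospheres (100%, exact 95% binomial interval 71.5% to 100%) and in 1 of 11 Set-B neurospheres (9.09%, interval 0.230% to 41.3%; adjusted p = 0.00126, Fisher's exact test over 37 assays). The intervals cover counting error only. Its cycle numbers in Set-A ran from 7.18 to 20.6 with a median of 7.74. Melt curves were not analysed here, so whether these early values are the target's own product was not tested, and the share of 11 of 11 counts any value. They were not evenly spaced: 7 neurospheres lay before 8.1 cycles, 2 between 8.1 and 14, and 2 after 14. The single Set-B value, in the neurosphere coded A2, was 18.1 cycles. In run 2, A045 was detected in 21 of 23 unexposed Set-A neurospheres, with cycle numbers from 17.1 to 21.4 and a median of 19.1. In run 3 it was detected in 0 of 23 unexposed Set-B neurospheres. By an approximate limit of 3 counts in 23, not an exact interval as above, this allows a share of up to 13.0%. Set-A thus had the higher share of A045 in both pairs of unexposed groups, and the early values of run 1 had no counterpart in run 2. The low share in Set-B did not hold at the higher doses of run 1. With 25, 70 and 100 mM ethanol, A045 was detected there in 2, 10 and 11 of 11 Set-B neurospheres. The earliest values were 12.3, 7.51 and 7.85 cycles. In Set-B of run 3 it was detected in 0 neurospheres at each of these doses. Of the 6 called assays, 5 were tested between runs 2 and 3. All 5 were less often detected in Set-B there, and 2 were called. Other assays went the opposite way there. A003 was detected in 9 of 23 Set-A and 23 of 23 Set-B neurospheres (adjusted p = 5.45e-05, Fisher's exact test). For A021 the counts were 11 and 20 of 23 (adjusted p = 0.0423, Fisher's exact test), against 10 and 4 of 11 in run 1.

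The mean cycle number of a neurosphere was taken over 50 assays detected in at least 95% of the 264 neurospheres. It ran from 8.92 to 14.3 in Set-A with a median of 12.8 (mean 12.6 ± 1.42, SD, n = 11), and from 11.3 to 16.6 in Set-B with a median of 14.5 (mean 14.3 ± 1.66, SD, n = 11). The groups overlapped: the Set-B neurospheres A1 and A7 gave product at 11.4 and 11.3 cycles, earlier than 10 of the Set-A neurospheres, and the Set-A neurosphere A7 was the earliest of all at 8.92. Set-B was later by 1.66 cycles (SE 0.66, adjusted p = 0.0359, permutation test). In such whole-sphere measurements, fewer cells and less RNA per cell cannot be told apart.

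This call was close to the threshold and depended on how the mean was formed. The difference was 1.35 cycles over the 36 assays detected in all 22 neurospheres (adjusted p = 0.142), 1.16 with log2 diameter as a covariate (adjusted p = 0.337), and 1.08 among the 4 Set-A and 10 Set-B neurospheres of 35 to 80 µm (adjusted p = 0.396, exact permutation test). It was 1.36 when 5 of the 50 assays, those more than 5 cycles earlier in run 1 than in the other run of a set, were left out of the mean (adjusted p = 0.121, chosen after seeing the data). It was 2.82 cycles over all 75 assays with missing values set to the last cycle, 30 (adjusted p = 0.00606, permutation test). Leaving out any 1 of 11 neurospheres also ended the call: Set-A A3, A7, A8, A10 or A11, or Set-B A4, A5, A6, A9, A10 or A11, with differences from 1.29 to 1.65 cycles and adjusted p from 0.0506 to 0.074.

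Within a set, no relation between diameter and either measure passed at 11 neurospheres. Pearson's r between log2 diameter and mean cycle number was -0.14 in Set-A (Spearman's rho -0.10, n = 11, permutation p = 0.677 and 0.76) and -0.36 in Set-B (rho -0.31, n = 11, permutation p = 0.278 and 0.357). For detected assays, r was -0.06 in Set-A (rho -0.07, n = 11, permutation p = 0.842 and 0.832) and 0.21 in Set-B (rho 0.19, n = 11, permutation p = 0.545 and 0.566). Adjusted over the 4 relations, each p of r was 0.842 and each p of rho 0.832. Without the 2 diameters farthest from the median, the same values of r were -0.29, -0.28, 0.07 and 0.35, in the order Set-A and Set-B mean cycle number, then Set-A and Set-B detected assays.

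The spread among neurospheres did not pass a test of difference between the sets. Absolute deviations of mean cycle number from the set's own median averaged 0.858 cycles in Set-A and 1.198 in Set-B (difference 0.34, SE 0.47, adjusted p = 0.579, permutation test). For log2 diameter they averaged 0.481 and 0.297 (difference -0.18, SE 0.16, adjusted p = 0.396, permutation test). On the micrometre scale the diameter deviations were 16.2 µm smaller on average in Set-B, a value of -16.2 (adjusted p = 0.0394, permutation test), so that call depends on the scale; the coefficient of variation was 39.2% in Set-A and 27.4% in Set-B. The distance of each neurosphere's level profile from its set's mean profile averaged 1.28 log2 units in Set-A and 1.33 in Set-B (difference 0.06, SE 0.24, adjusted p = 0.818, permutation test).

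The neurospheres farthest from their set's own mean profile in Set-A were A6 at 2.30 log2 units and A2 at 1.89, and in Set-B A3 at 2.68 and A1 at 2.24, against set medians of 1.22 and 1.22. Assay by assay, 55 assays had at least 8 values in each set; 32 had the larger SD in Set-B and 23 in Set-A, with median SDs of 1.47 and 1.17 log2 units. A permutation test of the deviations called 0 of the 55 (0%) after adjustment, and 4 had an unadjusted p under 0.05, all 4 with the larger deviations in Set-B. The smallest adjusted p was 0.499.

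For levels of single assays, the neurosphere's mean over those 50 widely detected assays was subtracted from its cycle numbers and the sign was turned, so that a higher relative level means more template relative to that neurosphere's mean, in log2 units. On this scale every one of the 22 neurospheres had its nearest neighbour in its own set. The median root mean square distance between neurospheres was 1.85 within Set-A, 1.599 within Set-B and 2.83 between the sets. These neighbours and distances were taken over the 50 assays, which include the 5 that were earlier in run 1, A001 among them. They were not computed without those 5, so how far the separation rests on them was not tested. The first principal component, over 35 widely detected assays with a value in all 22, held 42.5% of the variance. Its scores ran from -9.96 to 1.89 in Set-A (median -1.13) and from -6.68 to 10.02 in Set-B (median 5.61). Only the Set-B neurospheres A1 and A3 lay below the highest Set-A score. The order of the assays was largely shared: across the 36 assays detected in all 22, the sets' mean cycle numbers had a Pearson's r of 0.845 and a Spearman's rho of 0.862, a description over assays that share the same neurospheres.

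Of 68 assays tested, 15 (22.1%) were higher and 16 (23.5%) lower in Set-B than in Set-A relative to the widely detected assays (limma, Benjamini-Hochberg adjusted p under 0.05). The 15 higher assays differed by 1.00 to 3.71 log2 units with a median of 2.05, a median of 4.15-fold. The 16 lower assays differed by 1.42 to 10.9 log2 units in size, with a median difference of -2.45, a median of 5.45-fold. Of the 31 called assays, 16 had a value in all 22 neurospheres. Missing values did not enter the fit. A006, A047 and A052 were called higher but had fewer values in Set-B, for A006 6 of 11 against 10 of 11 in Set-A. A065, A066 and A072 were called higher and had more values in Set-B. Relative levels of the sets did not overlap at all for 1 assay (1.47%) that was lower in Set-B, A001, and for 0 (0%) that were higher.

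The split into higher and lower calls changed with the centring. Over the 68 assays the median difference was 0.51 log2 units after centring and -1.21 on the cycle numbers themselves, where 53 assays appeared later in Set-B and 15 earlier. Without centring limma called 0 assays (0%) higher and 15 (22.1%) lower, and at an unadjusted p under 0.05 it had 2 higher and 23 lower. Of the 15 lower assays, 14 were among the 16 called after centring. Of the 15 assays called higher after centring, 11 appeared earlier in Set-B and 4 later. The share of called assays that were higher was 48.4% with the main centring, 33.3% when centred on the 36 assays detected in all 22 or without the 5 assays that were earlier in run 1 than in other runs (8 higher and 16 lower under each), 26.7% with missing values set to 30 cycles and 19.0% with the median as the centre. Lower relative levels in Set-B were thus called under each of these scalings, and higher ones under each but the scale without centring.

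**Figure D3:**
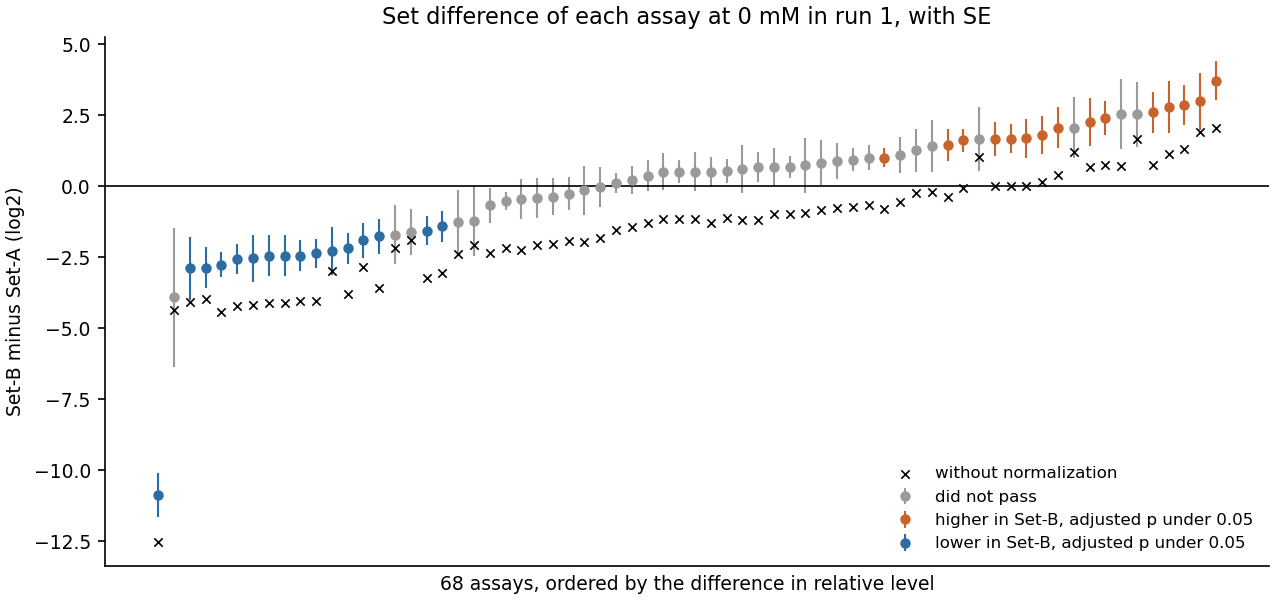
Difference in relative level between the sets for each of 68 assays, in log2 units, ordered by size; circles with SE bars are centred values, coloured where the adjusted p was under 0.05, and crosses are the same assays without normalization. The crosses lie below the circles in nearly every assay, with medians of -1.21 and 0.51, and A001 stands alone at the left at -10.87.

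Neurosphere size differed between the sets, and fewer assays were called when it entered the fit. With log2 diameter as a covariate, limma called 4 assays higher and 6 lower; 2 and 6 of these were among the 15 and 16. Among neurospheres of 35 to 80 µm, 4 of Set-A and 10 of Set-B, it called 9 higher and 5 lower of 67. With mean cycle number as a covariate the counts were 9 and 8. All 31 called assays kept their direction in each of these fits.

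A031 had the largest relative increase in Set-B among assays with a value in all 22 neurospheres. Its cycle numbers ran from 11.7 to 20.4 in Set-A (median 15.7) and from 10.2 to 17.2 in Set-B (median 13.6). Its relative level ran from -6.28 to -0.96 in Set-A (median -3.06) and from -3.53 to 1.56 in Set-B (median 1.17). The ranges met, but 9 of 11 Set-B neurospheres were above every Set-A neurosphere; the exceptions were A1 and A3. The difference was 3.71 log2 units (SE 0.70, limma adjusted p = 0.000359), about 13.1-fold. Without centring A031 differed by 2.05 (SE 0.97) and did not pass (limma adjusted p = 0.12).

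A017 was next, and the Set-A neurospheres were uneven. Relative levels ran from -5.64 to 2.87 in Set-A (median 1.38) and from 0.38 to 3.79 in Set-B (median 2.98). In Set-A, A1, A2, A4 and A6 had levels of -3.69, -5.64, -1.94 and -4.27, below every Set-B neurosphere, and the other 7 lay within the Set-B range. The difference was 2.79 log2 units (SE 0.92, limma adjusted p = 0.0211). It was 1.13 without centring (limma adjusted p = 0.465), 1.83 with log2 diameter as a covariate (limma adjusted p = 0.299), 2.09 with median centring (limma adjusted p = 0.0657) and 2.39 among neurospheres of 35 to 80 µm (limma adjusted p = 0.143), none of which passed. The SD of its relative level was 3.09 in Set-A and 1.09 in Set-B, a difference that did not pass (adjusted p = 0.627, permutation test over 55 assays).

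A063 had the largest relative decrease among assays with a value in all 22. Cycle numbers ran from 6.67 to 12.3 in Set-A (median 8.12) and from 9.71 to 14.2 in Set-B (median 13.3). The relative level ran from 1.86 to 5.80 in Set-A (median 4.68) and from 0.76 to 2.48 in Set-B (median 1.53). Only the Set-A neurospheres A6 and A7 reached into the Set-B range. The difference was -2.77 log2 units (SE 0.45, limma adjusted p = 6.47e-05), and it was -4.43 without centring and -2.76 with log2 diameter as a covariate.

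A001 differed most of all and was singled out after its values were seen. It was detected in 11 of 11 Set-A neurospheres at 5.58 to 12.5 cycles (median 7.78), and in 10 of 11 Set-B neurospheres at 17.8 to 24.3 cycles (median 21.9). Every Set-B value was later than the latest Set-A value. The relative level differed by -10.87 log2 units (SE 0.78, limma adjusted p = 3.74e-11), and the difference ran from -12.9 to -10.5 over every alternative fit that held this assay. In Set-A, 6 of the 11 values lay between 7.5 and 8.1 cycles, although the mean cycle numbers of those neurospheres ran from 12.4 to 14.3. Over all assays, 27 values of Set-A and 7 of Set-B lay in that band. As for A045, whether the early values of A001 are the target's own product was not tested, so the difference is one of cycle numbers and may not be one of this transcript.

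**Figure D4:**
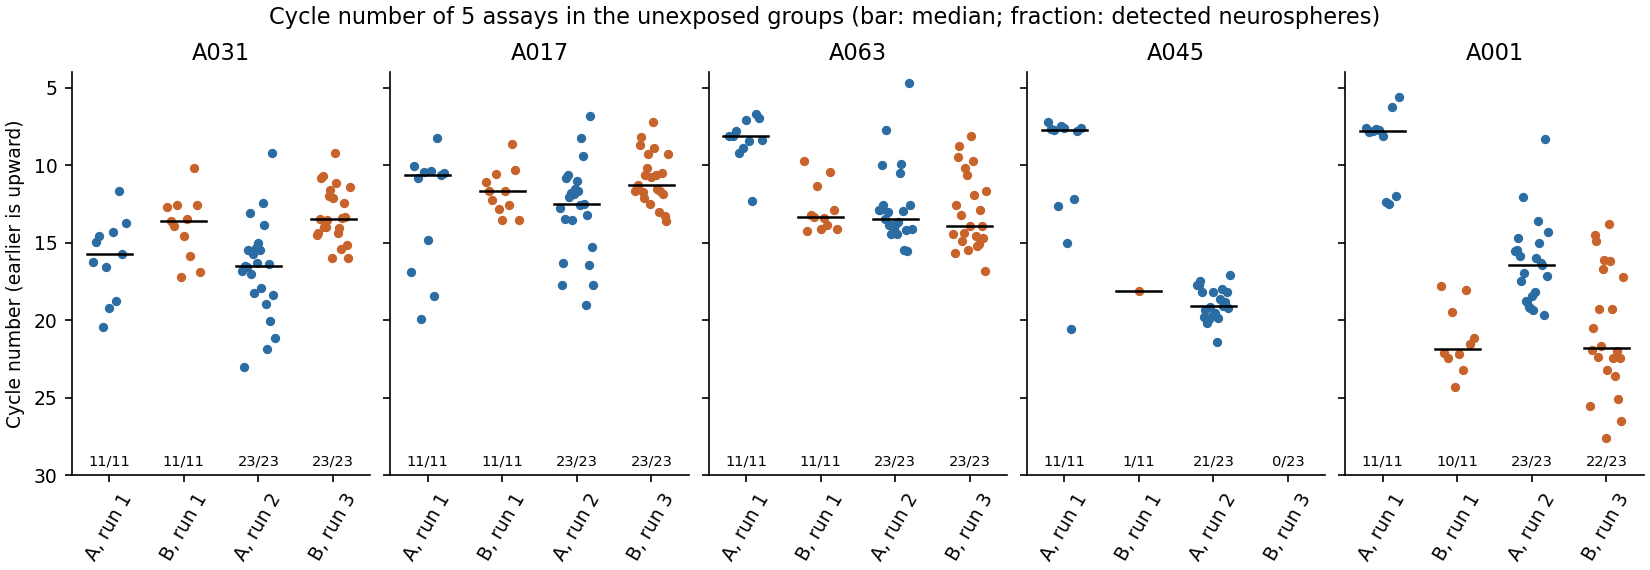
Cycle numbers of A031, A017, A063, A045 and A001 in the 4 unexposed groups, with earlier cycles upward; points are neurospheres, bars are medians, blue is Set-A, orange is Set-B, and fractions give neurospheres with a value. For A001 the run 1 medians are 7.78 in Set-A and 21.9 in Set-B, against 16.5 in Set-A of run 2 and 21.8 in Set-B of run 3.

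The other unexposed neurospheres give the same contrast in samples that the run 1 comparison did not use, with the limit that each set then had a run of its own, so that run and set cannot be told apart there. Run 3 Set-B against run 2 Set-A gave 20 higher (28.6%) and 23 lower (32.9%) of 70 assays (limma, adjusted p under 0.05). Of the 31 assays called in run 1, 27 had the same direction and 25 were also called in that direction: 10 of the 15 higher and 15 of the 16 lower. The other 4 were called in the opposite direction. Over all 67 assays tested in both, 55 had the same direction. The differences had a Pearson's r of 0.617 and a Spearman's rho of 0.62 across the 67 assays, which are not independent replicates, and r was 0.564 without A001. Without centring only 1 higher and 2 lower assays were called in runs 2 and 3.

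**Figure D5:**
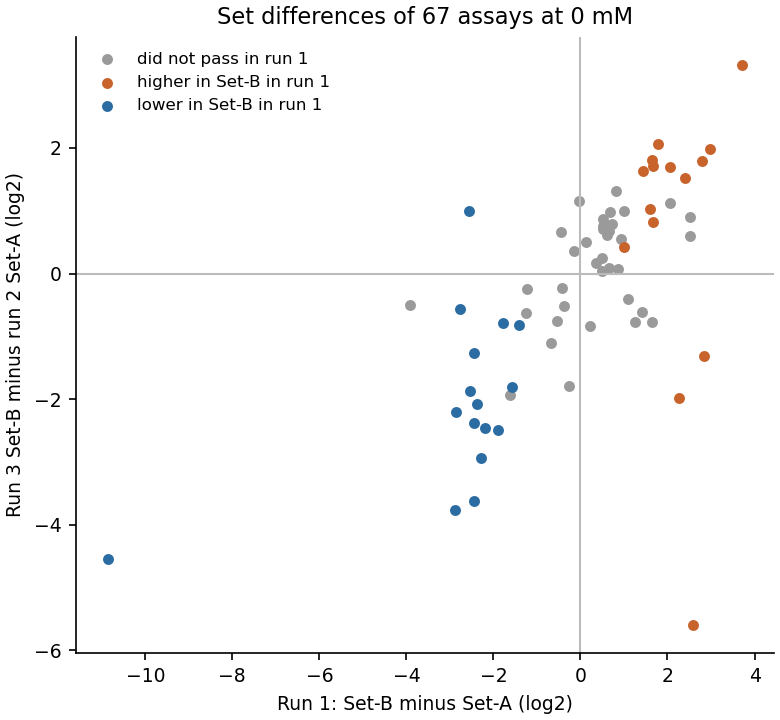
Set differences in relative level at 0 mM for 67 assays, in log2 units, run 1 on the horizontal axis and run 3 Set-B minus run 2 Set-A on the vertical axis; colours mark assays called in run 1. Of the 67 points, 55 lie in the lower left or upper right quadrant, and A001 is the point farthest left.

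The 4 assays called in opposite directions, named here after their values were seen, were A072, A047, A052 and A013. A072 differed by 2.60 log2 units in run 1 and by -5.59 between run 3 Set-B and run 2 Set-A (limma adjusted p = 9.05e-12). A047 went from 2.26 to -1.98 (limma adjusted p = 0.00153), A052 from 2.85 to -1.31 (limma adjusted p = 0.0194) and A013 from -2.57 to 1.00 (limma adjusted p = 0.0113).

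The first 3 of these had very early values in run 1 in both sets. A072 had medians of 5.92 cycles in Set-A and 4.71 in Set-B of run 1, against 17.1 in run 2 and 21.4 in run 3. The corresponding medians of A047 were 7.73, 7.32, 16.5 and 18.1 cycles, and those of A052 were 5.33, 3.41, 18.3 and 19.1 cycles. In all, 8 assays had a Set-A median more than 5 cycles earlier in run 1 than in run 2, and 0 had one more than 5 cycles later. For 3 of the 8 the Set-B median was also more than 5 cycles earlier in run 1 than in run 3. The 8 include 6 of the 31 assays called in run 1, among them A001 and A063, as well as A045. Whether these values are the targets' own product was not tested.

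The assays named for their run 1 differences kept their direction in the other runs. A031 differed by 3.32 log2 units between run 3 Set-B and run 2 Set-A (SE 0.45, limma adjusted p = 3.32e-08), beside 3.71 in run 1. A017 differed by 1.79 (SE 0.51, limma adjusted p = 0.00307), beside 2.79. A063 differed by -0.56 (SE 0.19, limma adjusted p = 0.0113), beside -2.77. A001 differed by -4.55 (SE 0.53, limma adjusted p = 1.30e-09), beside -10.87.

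Most of the gap between the pairs for A001 and A063 lay in Set-A. The Set-A neurospheres had a relative level of A001 of 3.95 ± 2.34 in run 1 (SD, n = 11) and of -2.13 ± 1.51 in run 2 (SD, n = 23). The Set-B neurospheres were at -6.92 ± 1.14 in run 1 (SD, n = 10) and at -6.68 ± 2.14 in run 3 (SD, n = 22). A063 in Set-A was 4.26 ± 1.23 in run 1 (SD, n = 11) and 1.62 ± 0.63 in run 2 (SD, n = 23), close to its level in Set-B of 1.499 ± 0.58 in run 1 (SD, n = 11). Between runs, Set-A differed in 35 of 72 assays (48.6%) and Set-B in 12 of 67 (17.9%), by limma at an adjusted p under 0.05. Whether these shares differ was not tested. Both fits used the main centring, which includes the 5 assays that were earlier in run 1. They were not repeated without those 5, so how far the 2 shares rest on the centring was not tested.

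The neurosphere-level differences were smaller in the other runs. Run 2 Set-A neurospheres had a mean diameter of 60.3 ± 41.5 µm (SD, n = 23), and run 3 Set-B neurospheres one of 41.5 ± 6.93 µm (SD, n = 23). Their log2 difference was -0.31 (SE 0.18, adjusted p = 0.142, permutation test adjusted over 9). Detected assays numbered 67.9 ± 2.72 in Set-A of run 2 and 64.3 ± 5.87 in Set-B of run 3 (SD, n = 23 each), a difference of -3.57 (SE 1.35, adjusted p = 0.118, permutation test). Mean cycle numbers were 14.3 ± 2.37 and 14.02 ± 2.42 (SD, n = 23 each), a difference of -0.24 (SE 0.71, adjusted p = 0.746, permutation test), beside 1.66 in run 1. Diameter and detected assays thus had the sign of run 1, and mean cycle number the opposite one. Whether these differences depart from those of run 1 was not tested. Run 2 minus run 1 in Set-A was 1.63 cycles, -0.64 log2 diameter and -2.13 detected assays (adjusted p = 0.13, 0.13 and 0.142, permutation tests). Run 3 minus run 1 in Set-B was -0.26 cycles, -0.12 log2 diameter and 4.12 detected assays (adjusted p = 0.746, 0.355 and 0.141, permutation tests). None of these passed.

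Within run 1, the set difference changed across the ethanol doses in mean cycle number (adjusted p = 0.000915), detected assays (adjusted p = 0.00021) and log2 diameter (adjusted p = 0.00441), by permutation tests of the interaction. Mean cycle number in Set-B was later by 1.66 cycles without ethanol and by 1.36 cycles (SE 0.80) with 25 mM. With 70 mM it was earlier, at -2.19 (SE 0.97), as it was with 100 mM, at -1.68 (SE 0.73). Detected assays differed by -9.82, -6.64 (SE 2.12), 0.27 (SE 2.59) and 2.18 (SE 0.55) along the 4 doses. Log2 diameter differed by -0.83 at 0 mM and by -0.01, 0.03 and 0.10 at 25, 70 and 100 mM (SE 0.17, 0.20 and 0.19). The unexposed Set-A neurospheres were the larger ones: mean log2 diameter was 6.304 ± 0.67 there and 5.38 ± 0.30, 5.36 ± 0.51 and 5.25 ± 0.53 in Set-A at the rising doses (SD, n = 11 each).

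Single assays also varied with dose. A set by dose interaction was called for 46 of 65 assays (70.8%; limma moderated F test, adjusted p under 0.05), and for 27 of the 29 baseline calls that could be tested, a test that uses the same unexposed neurospheres. With 25 mM the sets differed in 22 of 67 assays (32.8%), with 70 mM in 5 of 72 (6.94%) and with 100 mM in 46 of 72 (63.9%). Of the 31 baseline calls, 24, 8 and 11 had the baseline direction at these doses, and 10, 2 and 6 were also called in it. No matching count of directions over all assays is given here, and the 31 were chosen by their 0 mM values. Whether the baseline calls differ from other assays at these doses was not tested. At 25 mM, A004 and A059 had too few values to be compared. A001 went from a median of 21.9 cycles in unexposed Set-B to 7.92, 7.81 and 7.90 cycles at the rising doses of run 1. At 25 mM, 8 of 11 Set-B neurospheres had a value, from 7.23 to 22.2 cycles. Whether these early values are the target's own product was not tested either. In Set-B of run 3 the medians of A001 were 21.8, 20.8, 17.0 and 13.1 cycles at the same 4 doses, so the step at 25 mM was not seen there. In run 1 the set difference of A001 in relative level was 4.03 at 100 mM (SE 0.88, limma adjusted p = 0.0012), opposite to that at 0 mM. A063 differed by -0.80 (SE 0.42, limma adjusted p = 0.134), 0.39 (SE 0.65, limma adjusted p = 0.714) and -1.51 (SE 0.48, limma adjusted p = 0.0101) at 25, 70 and 100 mM. At these doses A031 differed by 0.72, 1.23 and -0.62 and A017 by 0.04, -0.50 and -0.74, none of which passed.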

How the data were processed

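Per the labels' protocols, imaged single neurospheres were lysed and taken straight to reverse transcription and pre-amplification without RNA extraction, then read with EvaGreen dye on Biomark arrays over 30 cycles. The deposited values are cycle numbers, an inverted log2 scale, not normalized per the file headers. No source used here gives the rule behind missing values, primer efficiencies or a molecule count, so depth is unknown and precision comes from the spread between neurospheres. The table holds 75 assays; the series design names 96 genes, and the others are not analysed here.

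Assays detected in at least 50% of the 264 neurospheres (72 assays) and with at least 3 values per set entered limma 3.58.1 (R 4.3.3), fitted on the 22 neurospheres, or on the groups each comparison names, with no covariate. Permutation tests were two-sided with 100000 resamples (scipy 1.17.1, numpy 2.4.6, Python 3.11.15). The tests were also run on simulated data. For limma these data held independent noise for each assay, so they cannot show how centring or the early values of run 1 affect the calls.

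Named assays were those called and detected in all 22 neurospheres with the 2 largest increases and the largest decrease, and the assay with the largest called loss of detection; A001 was added. Assays, groups and tests were chosen with earlier results of these data known. The tests of other runs and of doses at neurosphere level were added after seeing the data.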

Additional observations from a re-analysis of the deposited data

Results flagged for a closer look

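In run 1 the difference between the sets changed with ethanol dose, by tests of the set by dose interaction with 11 neurospheres per set and dose. For mean cycle number the interaction F was 6.34 (adjusted p = 0.000915), for detected assays it was 8.04 (adjusted p = 0.00021), and for log2 diameter it was 4.75 (adjusted p = 0.00441), each by permutation of residuals and adjusted over these 3 tests. Among single assays, 46 of 65 had an interaction (limma, adjusted p under 0.05).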

How the results depend on the processing

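The number of assays higher in Set-B was 15; it was 0 without normalization, 4 with median centring, 8 when centred on assays detected in all 22, 8 with missing values at 30 cycles, 8 when centred without 5 assays earlier in run 1 (chosen after seeing the data), 9 over the 36 assays detected in all 22, 4 and 9 with the covariates log2 diameter and mean cycle number, and 9 at 35 to 80 µm. The number lower was 16; over the same last 4 alternatives it was 7, 6, 8 and 5. In the other runs, 20 higher and 23 lower became 1 and 2 without normalization. The mean cycle difference of 1.66 lost its call at 1.35 over assays detected in all 22, 0.95 as a median, 1.36 without the 5 assays, 1.16 with log2 diameter as a covariate and 1.08 at 35 to 80 µm. Diameter spread passed in micrometres, at -16.2. The cause of these changes was not tested, beyond the smaller number of assays or neurospheres where an alternative has fewer.

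With 1 neurosphere left out, higher calls ran from 11 to 18, lower calls from 13 to 17, called detection differences from 6 to 12 (chosen after seeing the data), the mean cycle difference from 1.29 to 1.95, and the profile spread difference from -0.13 to 0.19, below 0 without Set-A A3 or A11 or Set-B A1 or A3. Detected assays and log2 diameter kept their calls in all 22.

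Whether same-numbered neurospheres pair was not tested. Their deviations correlated from -0.28 to 0.64 with a median of 0.25. Of the 11 pairs, 6 were over 0.1, and 2 of 11 matched their own number best. With the number as a replicate block, 14 assays were higher and 14 lower, and the paired differences of 1.66 cycles, -9.82 assays and -0.83 log2 diameter passed.

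Depth is unknown, so a missing value bounds no level.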
